A study of Rattus norvegicus with 8 samples.

Results

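The core circadian clock loop was followed here in the hearts of old female rats through 10 genes, the activators Bmal1, Clock and Npas2 and the repressors Per1, Per2, Per3, Cry1, Cry2, Nr1d1 and Nr1d2. Its members were all probe sets annotated to exactly 1 of these symbols, which gave 18 of the 31042 probe sets on the arrays that were not controls, and each of the 10 genes had at least 1. A filter on dim probe sets, set at the 40th percentile of mean log2 signal, kept 13 of the 18, and these 13 still covered all 10 genes. Values given for a gene are those of the brightest of its kept probe sets, unless another is named.

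The animals were Norway Brown rats aged 18 to 22 months, in 4 groups. Sham rats were operated on without removal of tissue and kept their ovaries; Ovx rats were ovariectomized and received no hormone. Early rats were ovariectomized and given a slow-release pellet of 0.5 mg estradiol, made to last 90 days, during the same operation, and Late rats were ovariectomized and given the same pellet at week 9. Each group had 2 arrays, and each array carried pooled RNA of 3 hearts, so a p-value reflects the spread between pools, which may be technical in part. No source used here gives the time of day at which hearts were taken, which matters for genes that cycle daily.

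The clock is a feedback loop of transcription. BMAL1 pairs with CLOCK or, in some tissues, with its relative NPAS2, binds E-box sequences and switches on the Per, Cry and Nr1d genes. PER and CRY proteins then return to the nucleus and block the BMAL1 pair, while NR1D1 and NR1D2, also called REV-ERB alpha and beta, shut down Bmal1 itself through ROR elements. In heart muscle, as in most tissues, Bmal1 and Npas2 peak at the opposite time of day from Nr1d1, and the Per genes follow Nr1d1.

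The start regions of both arms are shown because the loop acts through elements of this kind. RefSeq's promoter table (build GRCr8, 250 bases before to 50 after each start) held 11 promoters of 9 members, with none for Cry1. Of the 11, 5 held any of the motifs named next, and those printed below are among the 5. Capitals mark matches on either strand to an E-box (CACGTG) or its variant (CACGTT), a D-box (TTATGTAA or TTACGTAA), a ROR element (TAGGTCA or TGGGTCA), or an estrogen response element (GGTCA and TGACC, 3 bases apart), which shares the letters GGTCA with the ROR element. The Bmal1 promoter lies at chr1:176766078-176766377 on the plus strand, that of Per2 at chr9:99496944-99497243 and that of Nr1d1 at chr10:84229405-84229704, both on the minus strand.
Bmal1: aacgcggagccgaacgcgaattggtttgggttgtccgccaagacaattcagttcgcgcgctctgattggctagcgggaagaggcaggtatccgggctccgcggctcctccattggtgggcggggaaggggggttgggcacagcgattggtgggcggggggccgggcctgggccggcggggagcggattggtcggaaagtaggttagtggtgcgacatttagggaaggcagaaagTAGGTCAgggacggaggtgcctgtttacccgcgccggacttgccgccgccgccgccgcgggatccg
Per2: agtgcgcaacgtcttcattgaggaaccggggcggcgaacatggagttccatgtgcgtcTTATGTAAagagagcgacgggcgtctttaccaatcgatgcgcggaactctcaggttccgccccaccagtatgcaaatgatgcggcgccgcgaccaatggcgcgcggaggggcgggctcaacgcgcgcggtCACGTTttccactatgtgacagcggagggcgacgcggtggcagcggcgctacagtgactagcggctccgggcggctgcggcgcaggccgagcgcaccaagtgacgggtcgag
Nr1d1: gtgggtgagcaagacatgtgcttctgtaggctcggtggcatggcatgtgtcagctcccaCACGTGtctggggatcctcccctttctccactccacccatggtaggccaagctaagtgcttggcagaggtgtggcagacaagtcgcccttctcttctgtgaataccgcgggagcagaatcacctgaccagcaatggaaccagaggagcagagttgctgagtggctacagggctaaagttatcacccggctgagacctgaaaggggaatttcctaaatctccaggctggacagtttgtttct

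Bmal1 held the ROR element TAGGTCA, its first base 16 bases before the start, and 2.63% of the 33469 promoters of this length in the table held it. Per2 held the E-box variant 62 bases before the start and a D-box, TTATGTAA, 192 bases before it. These matches were found in 4.83% and 0.893% of all promoters. The E-box CACGTG was matched once among the members, in the Nr1d1 promoter shown, 191 bases before that start, and in 6.42% of all promoters. The E-box variant was matched also in the promoter of Cry2 and in a further promoter of Nr1d1. TTACGTAA, TGGGTCA and the estrogen response element were matched in 0 of the 11 promoters of the members, and in 0.12%, 4.09% and 0.0269% of all promoters. A match is a description of the letters in the window and shows no binding.

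All signals below are log2 values after quantile normalization between arrays. As deposited, the 2% trimmed mean signal ran from 28.2 on Late replicate 1 to 70.0 on the replicate 1 arrays and from 104.2 to 137.5 on the replicate 2 arrays. The ratio of 3' to 5' signal of Gapdh, a sign of RNA quality, was 2.70 on Late replicate 1 and 1.26 to 1.65 on the other arrays. That of actin was 3.06 on Ovx replicate 2, 3.01 on Late replicate 1 and 1.71 to 2.75 on the others. The heart label was borne out by cardiomyocyte markers, of which 6 of 7 passed the filter and whose median lay between 12.56 and 12.81 on the 8 arrays. Medians of the other marker lists ran from 6.54 to 8.06 for macrophages (8 of 8 markers passed), from 8.36 to 8.84 for fibroblasts (7 of 7), from 8.52 to 9.49 for endothelium (5 of 6), from 7.18 to 8.13 for smooth muscle and pericytes (4 of 5), from 4.52 to 5.14 for T cells (4 of 5) and from 9.71 to 10.66 for red blood cells (2 of 3). Of skeletal muscle markers 3 of 6 passed (Myh1, Myh2 and Ckm), at 11.68 to 11.99, with Myh4, Actn3 and Tnnt3 below the filter. Of adipocyte markers 1 of 5 passed, Fabp4, at 10.55 to 11.11, with Adipoq, Plin1, Lep and Cidec below the filter. In such bulk RNA, fewer cells of a type and less RNA per cell cannot be told apart.

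None of the 13 tested probe sets of the clock genes differed between any 2 groups in limma after Benjamini-Hochberg adjustment, nor in the F test over the 4 groups (adjusted p = 0.9997 for each of the 13). The same held for the whole array, where 0% of the 18625 tested probe sets passed in each of the 6 comparisons. At an unadjusted p under 0.05 the clock genes had 0 of 13 probe sets in each comparison. The share of all tested probe sets there was 1.47% for Ovx against Sham, 1.71% for Early against Ovx, 4.36% for Late against Ovx, 3.87% for Late against Early, 0.773% for Early against Sham and 3.37% for Late against Sham. With the replicate number as a block, 0 clock genes passed after adjustment. At an unadjusted p under 0.05 the block gave 1 of 13 in Late against Ovx (Npas2), in Late against Early (Per2) and in Late against Sham (Cry1), against 8.03%, 7.79% and 7.18% of all tested probe sets. It gave 0 of 13 in Ovx against Sham, Early against Ovx and Early against Sham, against 3.08%, 3.68% and 1.63%. Intervals below are from the fit without the block. What follows gives the values, the size of each difference and its interval. A p-value above the threshold does not show that 2 groups were alike.

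**Figure D1:**
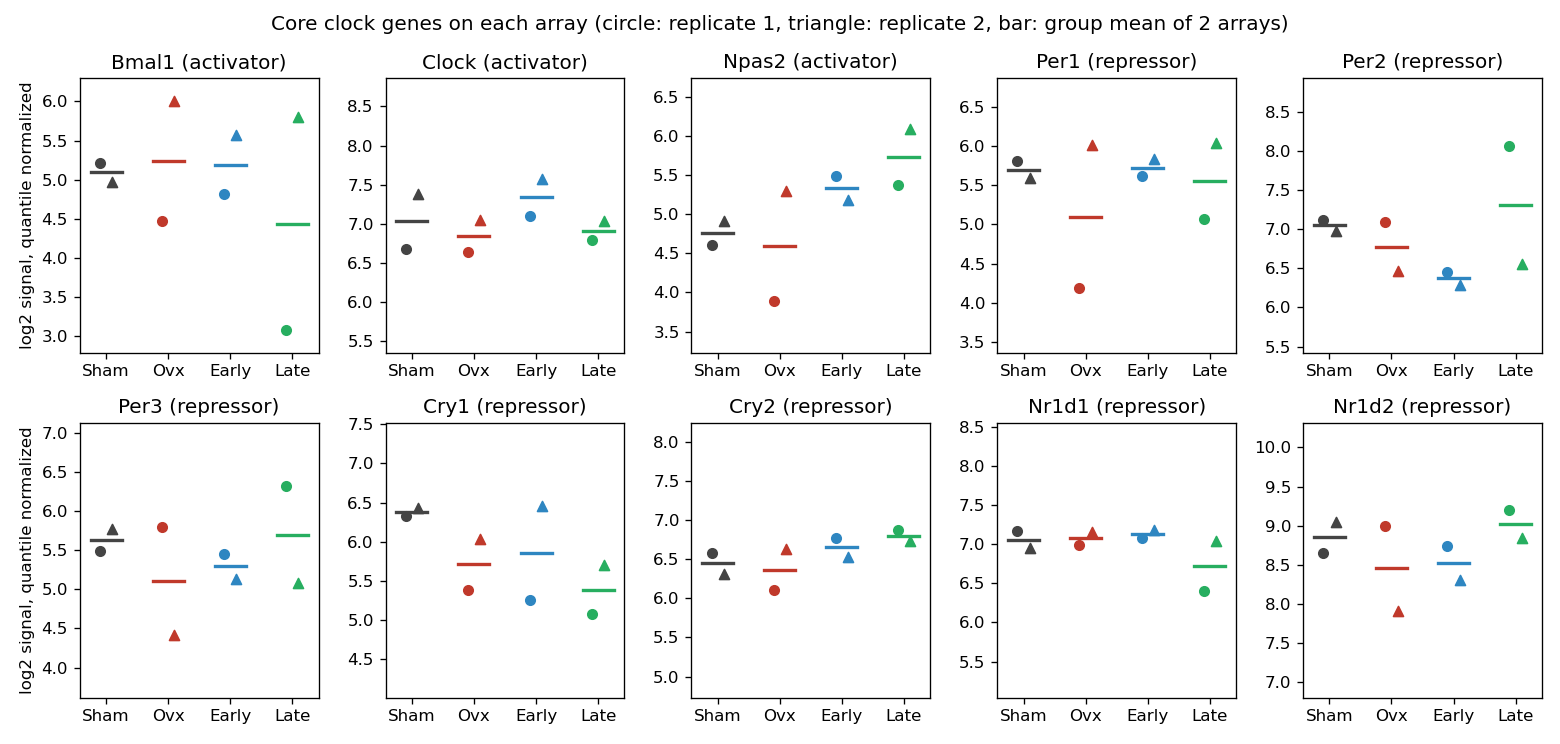
Log2 signal after quantile normalization (vertical axis, each panel spanning the same number of units) of the 10 clock genes in the 4 groups (horizontal axis), with circles for replicate 1, triangles for replicate 2 and bars for the mean of both arrays. The arrays of Ovx and Late lie far apart for Bmal1, Per1 and Per3, and those of Sham lie close together for Cry1 and Per2.

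Bmal1, the activator whose loss stops the clock, was the most variable of the 10 genes. Its signal was 5.22 and 4.97 in Sham, 4.48 and 6.01 in Ovx, 4.82 and 5.57 in Early, and 3.08 and 5.80 in Late, replicate 1 first. The lowest and the second highest value of Bmal1 came from the same group, Late, and the 4 groups overlapped. The group means ran from 5.24 in Ovx over 5.19 in Early and 5.10 in Sham to 4.44 in Late, a range of 0.80, against a gap of 2.71 between the 2 Late arrays. Late minus Ovx was -0.80 ± 0.83 (SE; 95% confidence interval -2.64 to 1.04), so a decrease of several fold and an increase of 1 log2 unit both lay within it. As deposited, before normalization, the Bmal1 signal was 4.93 on Late replicate 1 and 77.1 on Late replicate 2.

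Clock, which encodes the partner of BMAL1, varied less. Its brightest probe set read 6.68 and 7.39 in Sham, 6.64 and 7.05 in Ovx, 7.10 and 7.57 in Early, and 6.80 and 7.03 in Late. Both Early arrays lay above both Ovx arrays and above both Late arrays. Early minus Ovx was 0.49 ± 0.31 (95% confidence interval -0.21 to 1.19; limma adjusted p = 0.9998), and Late minus Early was -0.42 ± 0.31 (-1.12 to 0.27; adjusted p = 0.987). The order of the means was Early, Sham, Late and Ovx, and no neighbours in it differed beyond their spread. The other 2 tested probe sets of Clock did not rank the groups in that order. The first, at a mean signal of 6.34, differed by 0.018 between Early and Ovx, and by 0.23 between Late and Early. The second, at a mean of 4.25, differed by 0.91 and -1.50, the latter with a value of 2.10 on Late replicate 1 against 4.93 on Late replicate 2. Another probe set of Clock, at a mean of 2.004, was below the filter.

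Npas2, which can stand in for CLOCK, gave the largest difference among the 10 genes over the 6 comparisons. It read 4.61 and 4.91 in Sham, 3.89 and 5.30 in Ovx, 5.49 and 5.18 in Early, and 5.38 and 6.08 in Late. Both Late arrays were above all Sham and Ovx arrays, and both Early arrays were above the Sham arrays, while Ovx replicate 1 was lowest. Late minus Ovx was 1.14 ± 0.54 (a 2.20-fold difference; 95% confidence interval -0.057 to 2.33; limma adjusted p = 0.943), with 1.49 in replicate 1 and 0.78 in replicate 2. Late minus Sham was 0.97 ± 0.54 (-0.23 to 2.16; adjusted p = 0.997), with 0.77 and 1.17. The difference between Late and Ovx leaned on Ovx replicate 1. It was 0.44 without that array and 1.83 without Ovx replicate 2.

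The Period genes encode the proteins that carry the negative feedback. Per1 read 5.81 and 5.59 in Sham, 4.19 and 6.01 in Ovx, 5.62 and 5.83 in Early, and 5.07 and 6.04 in Late. Its Ovx mean, the lowest of the 4 at 5.10, came from replicate 1 alone, since Ovx replicate 2 lay above both Sham arrays. Ovx minus Sham was -0.60 ± 0.58 (95% confidence interval -1.89 to 0.69), made of -1.62 in replicate 1 and 0.42 in replicate 2.

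Per2 read 7.12 and 6.98 in Sham, 7.09 and 6.47 in Ovx, 6.45 and 6.29 in Early, and 8.06 and 6.55 in Late. Both Early arrays were below all arrays of the other 3 groups. Early minus Sham was -0.68 ± 0.44 (95% confidence interval -1.65 to 0.29; limma adjusted p = 0.9999), at -0.67 in replicate 1 and -0.69 in replicate 2. Late minus Early was 0.93 ± 0.44 (-0.040 to 1.91; adjusted p = 0.987), but 1.61 in replicate 1 and 0.26 in replicate 2, and 0.18 without Late replicate 1. On that array the deposited signal was 96.6, below the 135.6 and 190.0 of the Sham arrays; Late replicate 1 was the dimmest array. Without between-array normalization, Late minus Early was 0.33, where the median of all tested probe sets was -0.48. The further probe set of Per2, at a mean of 3.42, was below the filter.

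Per3 read 5.48 and 5.77 in Sham, 5.80 and 4.42 in Ovx, 5.46 and 5.13 in Early, and 6.31 and 5.08 in Late. Its highest and lowest values stood on Late replicate 1 and Ovx replicate 2. Both Early arrays were below both Sham arrays, with differences of -0.029 in replicate 1 and -0.64 in replicate 2, and Early minus Sham was -0.33 ± 0.55 (95% confidence interval -1.55 to 0.89). The further probe set of Per3, at a mean of 1.88, was below the filter.

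The cryptochromes are the partners of PER and the stronger blockers of the BMAL1 pair. Cry1 read 6.33 and 6.44 in Sham, 5.39 and 6.03 in Ovx, 5.26 and 6.45 in Early, and 5.07 and 5.71 in Late. All Ovx and Late arrays were below both Sham arrays, while the Early arrays fell on either side of them. Late minus Sham was -0.99 ± 0.45 (a 1.99-fold difference; 95% confidence interval -2.002 to 0.014; limma adjusted p = 0.997), at -1.26 in replicate 1 and -0.73 in replicate 2. Ovx minus Sham was -0.67 ± 0.45 (-1.68 to 0.34; adjusted p = 1), at -0.94 and -0.40. The difference between Late and Sham had the smallest unadjusted limma p among the 10 genes, 0.0526. With the replicate number as a block, limma's unadjusted p was 0.0135 and the adjusted p 0.688; the block gave Per2 in Late against Early 0.0172 and 0.612, and Npas2 in Late against Ovx 0.0319 and 0.610. Cry1 was brighter on replicate 2 than on replicate 1 in all 4 groups.

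Cry2 was among the steadiest genes, with 6.57 and 6.31 in Sham, 6.10 and 6.63 in Ovx, 6.77 and 6.52 in Early, and 6.86 and 6.73 in Late. Both Late arrays were above all Ovx and Sham arrays. Late minus Ovx was 0.44 ± 0.29 (95% confidence interval -0.21 to 1.08), and Late minus Sham was 0.35 ± 0.29 (-0.29 to 1.001). Late minus Ovx was 0.77 in replicate 1 and 0.10 in replicate 2, and 0.17 without Ovx replicate 1. Without between-array normalization Late minus Sham was -0.30, where the median of all tested probe sets was -0.62. Its further probe set, at a mean of 3.02, was below the filter.

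Nr1d1 and Nr1d2 encode the nuclear receptors that repress Bmal1. Nr1d1 read 7.17 and 6.94 in Sham, 6.99 and 7.16 in Ovx, 7.08 and 7.18 in Early, and 6.40 and 7.04 in Late. Outside Late replicate 1, all values of Nr1d1 lay between 6.94 and 7.18. Ovx minus Sham was 0.017 ± 0.28 (95% confidence interval -0.60 to 0.63), the narrowest interval of the 10 genes. It was -0.30 without normalization and -0.16 with median centring, where the medians of all tested probe sets were -0.31 and -0.17. Both Late arrays were below the Early arrays, and Late minus Early was -0.41 ± 0.28 (-1.03 to 0.21; limma adjusted p = 0.987). It was -0.091 without Late replicate 1 and -0.72 without Late replicate 2.

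Nr1d2, the brightest of the 10 genes, read 8.66 and 9.05 in Sham, 9.00 and 7.91 in Ovx, 8.74 and 8.30 in Early, and 9.20 and 8.84 in Late. Both Late arrays were above both Early arrays, and Late minus Early was 0.50 ± 0.33 (95% confidence interval -0.24 to 1.25), with 0.46 and 0.54 in the 2 replicates. Without between-array normalization it was -0.11, where the median of all tested probe sets was -0.48. The second tested probe set of Nr1d2, at a mean of 7.25, gave 0.10 for the same difference, with -0.20 and 0.40. Both probe sets had their lowest value on Ovx replicate 2, at 7.91 and 6.56. For Ovx minus Sham they gave -0.40 ± 0.33 and -0.58 ± 0.34, with 0.34 and 0.11 in replicate 1 and -1.14 and -1.27 in replicate 2. The third probe set of Nr1d2, at a mean of 3.65, was below the filter.

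**Figure D2:**
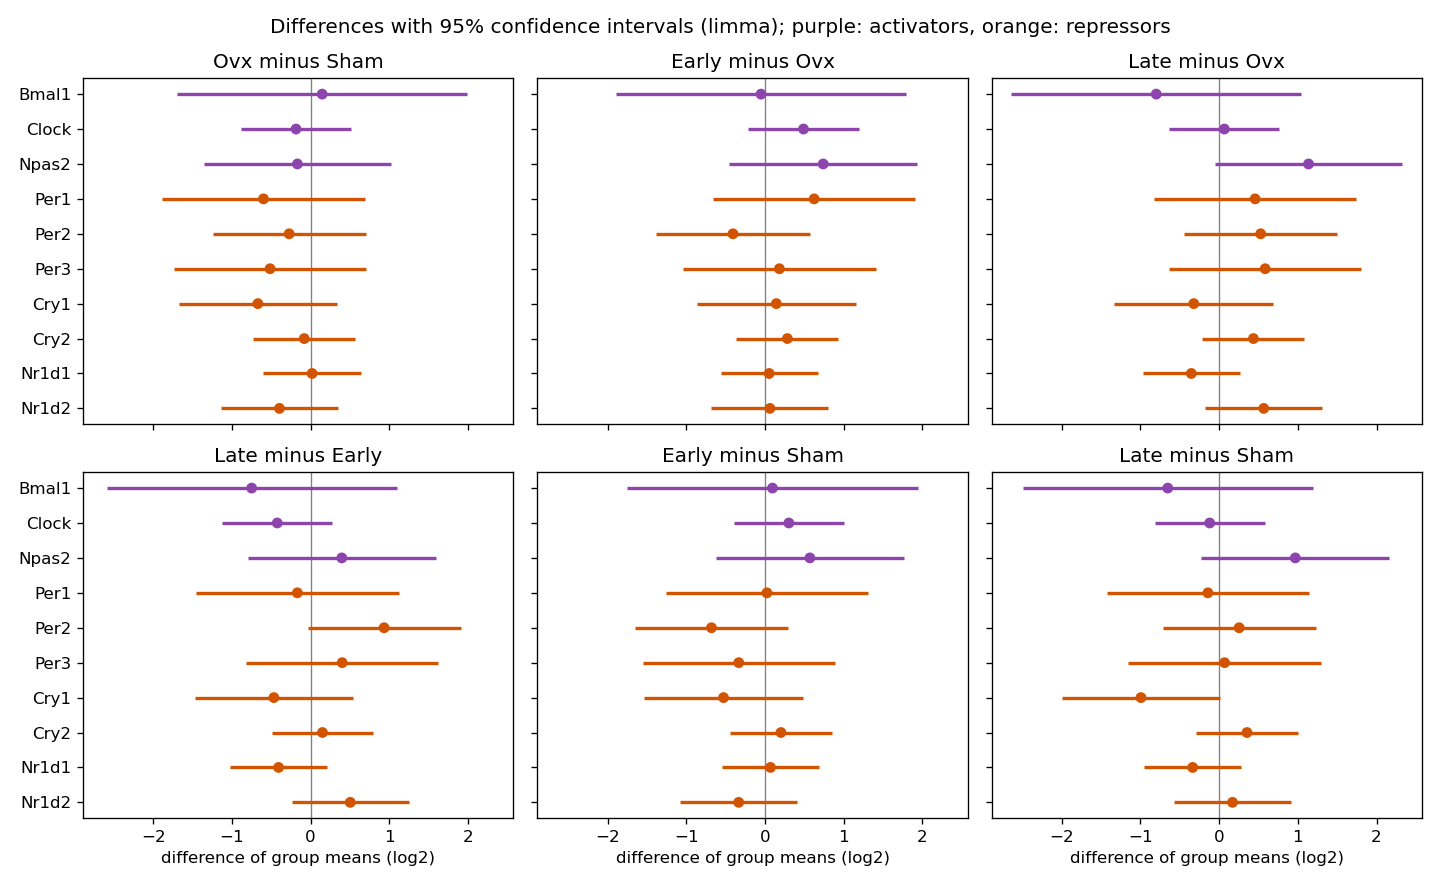
Difference of group means (log2, horizontal axis) of the 10 clock genes (vertical axis) in the 6 comparisons, with limma's 95% confidence interval as a line; activators are purple and repressors orange. Every interval includes 0, and that of Cry1 for Late minus Sham, from -2.002 to 0.014, and that of Per2 for Late minus Early, from -0.040 to 1.91, reach least past it.

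Ovx against Sham compared aged hearts without and with ovaries. Of the 7 repressors, 6 lay lower after ovariectomy, with a median of -0.40, and of the 3 activators 2 lay lower, with a median of -0.17. The median over all tested probe sets was -0.026, and 53.3% of these lay below 0, where 8 of the 10 clock genes did. In single replicates the median of the repressors was -0.18 and -0.40, and that of the activators -0.73 and 0.39. Without either of the Ovx arrays, 4 of the 7 repressors lay lower. The groups did not overlap for 1 of the 10 genes, Cry1, which was lower, against 14.1% of all tested probe sets, and for 0 of 10 that were higher, against 11%. As normalized here, with median centring and without between-array normalization, 6 of 7 repressors lay below the median of all tested probe sets. Without normalization the repressor median was -0.69 and that of all tested probe sets -0.31. The latter moved likewise to 0.18 in Early against Ovx, -0.31 in Late against Ovx, -0.48 in Late against Early, -0.14 in Early against Sham and -0.62 in Late against Sham, so that un-normalized differences are read against these.

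Both estrogen groups were compared with the same Ovx arrays, so their differences share those values. In Early against Ovx, 6 of 7 repressors and 2 of 3 activators lay higher, with medians of 0.15 and 0.49 where that of all tested probe sets was 0.024. The 2 genes below 0, Bmal1 and Per2, were 2 of 10, against 47.1% of all tested probe sets. Clock was higher without overlap and Per2 lower, 1 of 10 each, against 14.7% and 12.3%. In Late against Ovx, 5 of 7 repressors and 2 of 3 activators lay higher, with medians of 0.46 and 0.066 where that of all tested probe sets was 0.012, and 3 of 10 genes lay below 0, against 48.8%. The groups did not overlap for Npas2 and Cry2, which were higher, 2 of 10 against 15.7%, and for 0 of 10 that were lower, against 13.4%. The repressor median in Late against Ovx was 0.51 in replicate 1 and 0.084 in replicate 2, and -0.0047 without Late replicate 1. The repressor median of Early against Ovx was -0.13 in replicate 1 and 0.019 in replicate 2. The activator median of Late against Ovx was -0.29 without normalization and -0.038 with median centring, where those of all tested probe sets were -0.31 and -0.058.

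Late against Early addressed the timing of the same pellet. Per2 and Nr1d2 were higher without overlap, 2 of 10 genes against 15.5% of all tested probe sets, and Clock and Nr1d1 were lower, 2 of 10 against 16.3%. In all, 5 of the 10 genes lay below 0, against 50.7%, with a median of 0.15 for the repressors and -0.42 for the activators, where that of all tested probe sets was -0.0071. The repressor median was -0.18 with median centring and -0.41 without normalization, where those of all tested probe sets were -0.25 and -0.48. In all 3 scalings 3 of the 7 repressors lay below the median of all tested probe sets. Against Sham, the groups did not overlap in Early for Npas2, which was higher, 1 of 10 against 12.1%, and for Per2 and Per3, which were lower, 2 of 10 against 12.7%. Late and Sham did not overlap for Npas2 and Cry2, which were higher, 2 of 10 against 14.5%, and for Cry1, which was lower, 1 of 10 against 16.1%. Below 0 lay 4 of the 10 genes in Early against Sham and 5 in Late against Sham, against 50.1% and 51.9%. In Late against Sham the repressor median was 0.069 as normalized here, -0.21 with median centring and -0.60 without normalization, where those of all tested probe sets were -0.021, -0.23 and -0.62. Below the latter lay 3, 2 and 2 of the 7 repressors. In each of the 6 comparisons the count of clock genes without overlap was at most 2 of 10 in a direction, near the share of all tested probe sets.

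The spread between the 2 arrays of a group was wide against the differences between groups. For each of the 10 genes, the widest gap between 2 arrays of the same group exceeded the range of the 4 group means. For 4 of them even the average gap did, in Nr1d2 only by 0.5669 against 0.5665. The share of all tested probe sets for which this held was not computed, so these counts set the clock genes apart from no others. The gaps include any shift between replicate 1 and replicate 2 that the groups share. Clock and Cry1, for example, were brighter on replicate 2 in all 4 groups. The residual SD was 1.14 for Bmal1, 0.74 for Per1 and 0.67 for Per3, against 0.23 for Cry2 and 0.25 for Nr1d1. Leaving out 1 array moved further differences as well. Ovx minus Sham of Cry1 was -0.36 without Ovx replicate 1 and -0.98 without Ovx replicate 2, and Early minus Ovx of Clock was 0.25 and 0.73 without Early replicate 2 and 1. Late minus Ovx of Bmal1 turned to 0.58 without Late replicate 1. The median residual SD was 0.55 over the 10 genes and 0.40 over all tested probe sets, and 7 of the 10 genes were above the latter.

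**Figure D3:**
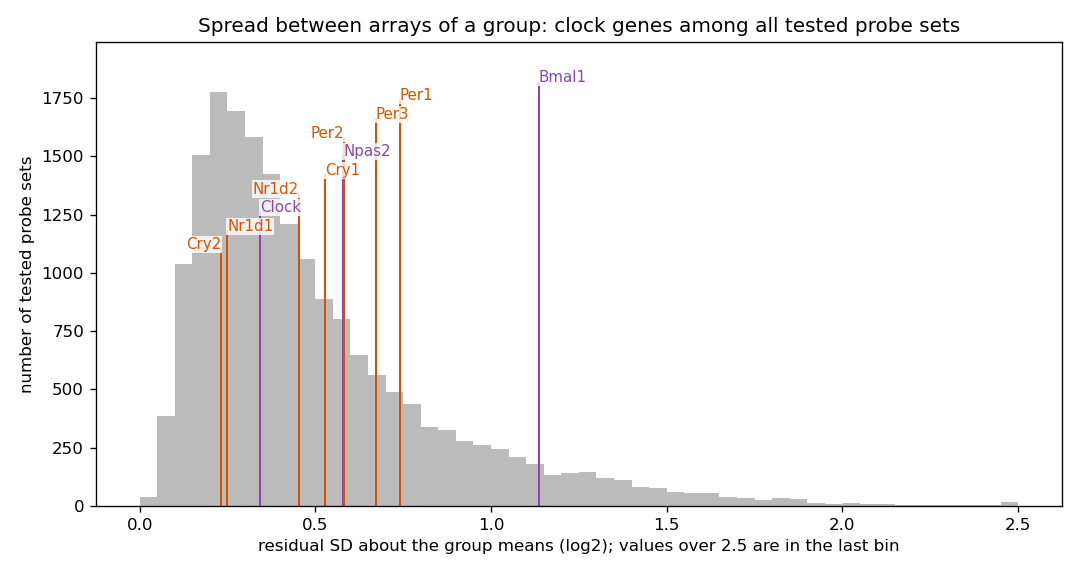
Residual SD about the group means (log2, horizontal axis) of all 18625 tested probe sets as a histogram of their number (vertical axis), with a line for each clock gene, purple for activators and orange for repressors. Bmal1, at 1.14, lies at the 93rd percentile, and Cry2, at 0.23, at the 22nd.

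Array by array, Bmal1 stood at the other end from Per2, Per3 and Nr1d2 on several arrays. On Late replicate 1, Per2, Per3, Nr1d2 and Cry2 had their highest normalized values and Bmal1, Cry1 and Nr1d1 their lowest. The second tested probe set of Nr1d2 read 7.09 on that array, below its mean of 7.25, and was highest on Sham replicate 2. As deposited, Late replicate 1 was the dimmest array. Before normalization Nr1d2 was lowest on it, at 201.7, and Cry2 was at 45.8, against 94.7 and 113.2 in Sham. Relative to the mean of each gene over the 8 arrays, Per2 was at 1.18, Per3 at 0.88 and Nr1d2 at 0.49 on Late replicate 1, and Bmal1 at -1.91. The deposited Bmal1 signal on that array, 4.93, was dim, below the array's median signal of 13.3. The other activators, Npas2 and Clock, were at 0.27 and -0.24 on Late replicate 1 and at 0.20 and 0.021 on Ovx replicate 2. On Ovx replicate 2 Bmal1 was highest at 1.01, and Per3 and Nr1d2 lowest at -1.01 and -0.80. Per2 was at -0.41 on that array and lowest on Early replicate 2, at -0.59, where Bmal1 was at 0.57. Per1 and Nr1d1 lay on the same side as Bmal1 on both Late replicate 1 and Ovx replicate 2, with Per1 at -0.45 and 0.49 and Nr1d1 at -0.59 and 0.16. Ovx replicate 1 stood apart in other genes, with the lowest values of Clock, Npas2, Per1 and Cry2, of which Per1 was at -1.33 and Npas2 at -1.22.

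**Figure D4:**
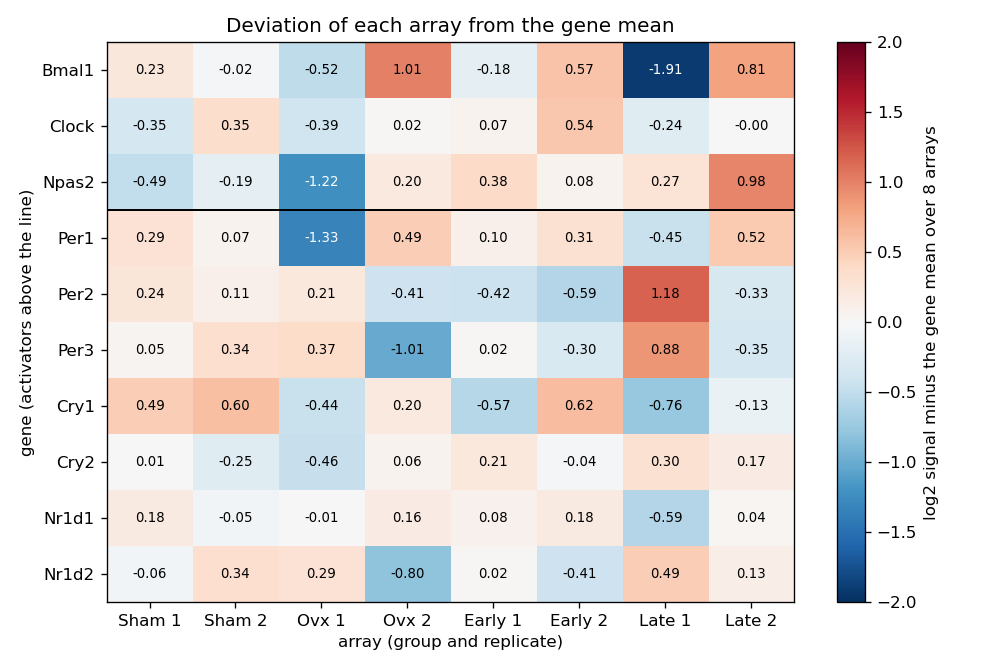
Log2 signal minus the mean of the gene over the 8 arrays (colour and printed value) for the 10 clock genes (rows, activators above the line) on each array (columns). Late replicate 1 has Per2 at 1.18 and Bmal1 at -1.91, and Ovx replicate 2 has Per3 at -1.01 and Bmal1 at 1.01.

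The arrays that carry this pattern also stood apart in other measures. Late replicate 1 was the dimmest array and had the highest Gapdh ratio, and Ovx replicate 2 had the highest actin ratio. The macrophage marker median was lowest on Late replicate 1, at 6.54, and highest on Ovx replicate 2, at 8.06, with 6.98 on Ovx replicate 1, 7.51 on Late replicate 2, 7.50 and 7.24 in Sham, and 7.74 and 7.45 in Early. The endothelial marker median was highest on Late replicate 1, at 9.49. The part of these measures in the clock values was not tested. Over the 10 genes the median distance from the gene mean was 0.54 on Late replicate 1 and 0.42 on Ovx replicate 1, against 0.37 and 0.28 over all tested probe sets.

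Genes of like profile were sought for 1 activator and 1 repressor among 10440 other genes, by the root mean square difference of log2 values over the 8 arrays, each gene centred on its own mean. Nearest to Bmal1 were Ddx41 at 0.20, Atg4d at 0.24, Vps37b at 0.27, Cd83 at 0.27 and Tcf19 at 0.28, where Bmal1 itself varied by 0.87 about its mean. All 5 had their lowest value on Late replicate 1, as Bmal1 did, from 3.30 for Tcf19 to 4.82 for Vps37b. Nearest to Nr1d1, which varied by 0.24, were Cnih1 at 0.055, Pcna at 0.065, Pitpna at 0.066, and Polrmt and Fbxo6 at 0.067 each, again all lowest on Late replicate 1. Both sets were picked for likeness over these same 8 arrays. That they share the lowest array of Bmal1 and of Nr1d1 therefore follows from the choice and is no separate result.

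Of 29 further genes of the clock pathway, 21 passed the filter, and 0 of these passed the limma threshold in either direction in any of the 6 comparisons. At an unadjusted p under 0.05 there were 2 of the 21 in Ovx against Sham, Late against Ovx and Late against Early (1.47%, 4.36% and 3.87% of all tested probe sets) and 1 in Early against Ovx, Early against Sham and Late against Sham (1.71%, 0.773% and 3.37%). Their median difference ranged from -0.12 in Ovx against Sham to 0.089 in Early against Ovx. Rora and Rorb, which activate Bmal1 at the ROR element, were below the filter. Of the further repressors, Bhlhe41, Bhlhe40 and Nfil3 differed by -0.18 ± 0.27, -0.40 ± 0.57 and 0.063 ± 0.47 between Ovx and Sham. Bhlhe41 had its largest difference between Early and Sham, at -0.51.

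Among the 10 tested kinases and ubiquitin ligases that set the stability of PER and CRY, Csnk1d, the casein kinase that phosphorylates PER, lay lower in Late than in each other group, by -0.66 ± 0.23 against Sham, -0.75 against Ovx and -0.78 against Early (limma adjusted p = 0.997, 0.943 and 0.987). Gsk3a differed by 0.66 ± 0.29 and Prkaa2, a subunit of the AMP-activated kinase that marks CRY for decay, by -0.60 ± 0.34 between Late and Early. The corepressors Ncor1 and Hdac3, through which the REV-ERB receptors act, differed by at most 0.38, in Ncor1 between Early and Ovx. Of the metabolic genes under clock control, Pdk4, a brake on glucose oxidation, lay lower in Ovx, Early and Late than in Sham, by -0.97, -0.73 and -0.82 (SE 0.56 each), Nampt by -0.43, -0.27 and -0.16, and Klf15 differed by at most 0.40, between Late and Ovx. Pdk4 read 10.52 and 9.39 in Sham, 9.28 and 8.69 in Ovx, 10.20 and 8.24 in Early, and 8.93 and 9.35 in Late. Its Early arrays thus overlapped Sham, and Late replicate 2 lay just below Sham replicate 2.

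Output genes driven by the loop's E-boxes were tested as well, and none passed. Wee1, a cell cycle kinase measured by a probe set that may read related transcripts, was 6.01 and 6.63 in Sham, 4.06 and 5.44 in Ovx, 6.23 and 6.27 in Early, and 5.95 and 6.09 in Late, so both Ovx arrays were lowest. Its Ovx minus Sham difference stood at -1.57 ± 0.46 (limma adjusted p = 1), that of Tef at -0.77 ± 0.51 and that of Dbp at -0.62 ± 0.25. Tef read 6.06 and 6.57 in Sham but 4.64 and 6.44 in Ovx, so its difference came mostly from Ovx replicate 1. Between Early and Ovx Wee1, Tef and Dbp stood at 1.504, 0.72 and 0.016, and between Late and Ovx at 1.27, 0.75 and 0.39.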

How the data were processed

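The authors deposited a linear signal intensity for each probe set. Per the submitters' processing notes it came from MAS5, whose version, scaling target and detection calls no source used here gives. Probe sets were named through the platform annotation, updated by Entrez number through RefSeq (assembly GRCr8, names and promoters only). Of 31099 probe sets, 57 controls were left out. Log2 values were quantile normalized between arrays, since the deposited arrays differed in scale, and the 18625 probe sets at or above the 40th percentile of mean log2 signal were fitted across all genes with limma 3.58.1 in R 4.3.3 (group means, 8 arrays, intensity trend, 4 residual degrees of freedom, two-sided, Benjamini-Hochberg at 0.05). The fit was tested on simulated data with independent errors and no replicate shift. The changes added there were larger than any difference of group means of a clock gene, so smaller differences were not covered. Errors are limma's standard errors unless an SD is named, intervals are at 95%, and the number of arrays limits the precision. The members, lists and tests were chosen with earlier results of these data known. Named further genes were those of largest absolute difference in a list, at most 4 per list, and the 5 genes nearest in profile to Bmal1 and to Nr1d1. The replicate number is shared by the groups in the titles. Its replicate 2 minus replicate 1 differences correlated between groups in all 6 pairs (r from 0.28 to 0.33, across probe sets, which are not independent replicates). The main fit leaves this number out, and p-values from a fit with it as a block are given beside it. The alternatives tried were other scalings, filters, an offset of 32, the replicate block, no trend, averaged probe sets, and arrays left out.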

Additional observations from a re-analysis of the deposited data

How the results depend on the processing

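Of the 17 alternative settings, none that kept all arrays had a clock gene pass the threshold. The smallest limma adjusted p in these was 0.610, for Npas2 in Late against Ovx with the replicate block. Where arrays were left out, at least 1 group kept only 1 array, so for clock genes only the size of differences is given. Counts of called probe sets over the whole array are listed for those fits too. A group of 1 array has no spread of its own, so no conclusion is drawn from these counts. Gene differences changed sign in at most 16 of 60 (without the 2 dimmest arrays), and list medians in 27 of 204. With the replicate block, 1 probe set, no clock gene, was called in Late against Ovx, as with no filter, the 60th percentile filter or 32 added, and the block changed no other call. Without the 2 dimmest arrays 5 were called in Ovx against Sham.

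With single arrays left out, 0 to 3 probe sets were called in Ovx against Sham, and 0 to 65, 0 to 100 and 0 to 86 in Late against Ovx, Early and Sham, with the most in each of these without Late replicate 2 and, in Ovx against Sham, without Ovx replicate 1; the F test called 0 to 1. The activator medians then ranged from -0.61 to 0.56 (Ovx against Sham), 0.032 to 0.71 (Early against Ovx), -0.14 to 0.58 (Late against Ovx), -0.66 to 0.63 (Late against Early), 0.069 to 0.65 (Early against Sham) and -0.48 to 0.73 (Late against Sham). The repressor medians ranged from -0.50 to -0.066, -0.032 to 0.28, -0.0047 to 0.50, 0.086 to 0.28, -0.48 to 0.068 and -0.036 to 0.35 in the same order.

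Without between-array normalization, the repressor medians were -0.69, 0.31, 0.11, -0.41, -0.49 and -0.60 in that order, and the activator medians -0.29, -0.999, 0.17 and -0.83 in the last 4 comparisons, where the medians of all tested probe sets there were -0.31, -0.48, -0.14 and -0.62. With median centring the repressor medians were 0.33 for Early against Ovx and -0.18 for Late against Early, where those of all tested probe sets were 0.20 and -0.25. At the 60th percentile filter, where Bmal1 dropped out, the activator medians were 0.60, -0.015, 0.44 and 0.42 in the last 4 comparisons. With 32 added the repressor median of Early against Sham was -0.20, and with averaged probe sets the activator median of Late against Ovx was -0.090. Without the 2 dimmest arrays the activator medians were 0.033 (Early against Ovx), 0.65 (Late against Early) and 0.76 (Late against Sham), and the repressor medians -0.032 (Early against Ovx) and 0.089 (Late against Ovx). The cause was not tested.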
